A study of Mus musculus with 10 samples.

Results

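The EGF family ligands Egf, Tgfa, Areg, Ereg, Btc, Hbegf and Epgn and the ERBB receptors Egfr, Erbb2 and Erbb3 were followed through 10 mouse gastric tumours, each sequenced as 1 bulk RNA library. They were the rows of the deposited FPKM table (fragments scaled to gene length and a total per library) that carry these 10 symbols, and all 10 were found among 56748 genes, 7 ligands and 3 receptors. The 5 inflamed tumours carried the genotype Tff1-CreERT2, Apcfl/fl and Trp53fl/fl, in which an inducible Cre recombinase under the gastric gene Tff1 acts on floxed Apc and Trp53. The 5 desert tumours grew from orthotopic allografts, and their stated genotype was wild type. No source used here gives the age of the animals or says whether wild type refers to the host or to the grafted cells. Type, genotype and origin of the tumours coincided and cannot be told apart. In bulk tissue, fewer cells of a type and less RNA per cell cannot be told apart either, and no label says whether tumours of a group came from separate animals, so p-values measure only the spread between these samples.

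Ligands of the EGF family are made as membrane-anchored precursors that metalloproteases release. They bind Egfr, and some also bind Erbb4, after which the receptors pair and switch on the RAS-ERK and PI3K routes. Erbb2 has no known ligand of its own and is a preferred partner of the other receptors. Erbb3 has a weak kinase and binds some of the neuregulins. In the stomach, this family is known for its part in mucosal growth and repair, and excess Tgfa is linked to overgrowth of mucous surface cells.

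Depth was alike, with 14148147 to 16951640 reads in genes per library, recovered from the steps of the FPKM values. General epithelial genes were expressed in both groups, with a mean Epcam level of 368 ± 35.6 FPKM in inflamed against 305 ± 77.3 FPKM in desert tumours (SD, n = 5 each). Epcam and Krt18 overlapped between the groups. Cdh1, Krt8, Krt19, Cldn4, Cldn7 and Esrp1 were higher in every inflamed tumour than in any desert tumour. The ratios of their means ran from 2.08 (Cdh1) to 6.99 (Krt19). The gastric markers that define pit, neck and chief cells were at no more than 3.88 FPKM in any desert tumour apart from Muc6 (7.07 to 35.4 FPKM), and their summed level over 7 genes was 7740 to 41953 FPKM in inflamed and 13.4 to 38.9 FPKM in desert tumours. Of these defining markers, desert tumours thus held a level above that only for Muc6. Over 8 pan-epithelial genes the sums were 3436 to 6418 and 1574 to 2263 FPKM, over 6 leukocyte and macrophage genes 78.9 to 316 and 75.0 to 227 FPKM, over 4 neutrophil genes 8.05 to 149.7 and 0.636 to 1.57 FPKM, over 5 T cell genes 9.50 to 25.4 and 0.303 to 1.05 FPKM, and over 5 mast cell genes 90.7 to 438 and 4.38 to 7.69 FPKM. Over 5 fibroblast genes they were 60.1 to 172 and 40.9 to 75.1 FPKM, over 4 smooth muscle genes 69.1 to 711 and 7.12 to 40.2 FPKM, over 4 endothelial genes 11.3 to 31.1 and 10.2 to 15.3 FPKM, and over 6 squamous forestomach genes 9.44 to 265 and 0 to 0.320 FPKM. Krt5 and Ivl of the squamous list and Mcpt1 of the mast cell list were at 0 in all 5 desert tumours. Such sums follow the most abundant genes of a list. In the mast cell list Mcpt1 and Mcpt2 did not overlap between the groups, while Kit, Cpa3 and Cma1 did. In the fibroblast list Pdgfra (10.5 against 14.6 FPKM) and Lum (3.47 against 4.62 FPKM) had the lower mean in inflamed tumours. Dcn, Col1a1 and Pdgfrb had the higher. In the leukocyte list only Ptprc did not overlap (1.17 to 4.24 against 0.327 to 1.03 FPKM). The part of these cell types in the differences described here was not tested.

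In the table's positions, which did not match the mm10 build named in the submitters' processing notes, 4 of the 7 ligand genes lie together on chromosome 5: Epgn (ENSMUSG00000035020, 91175323 to 91183074), Ereg (ENSMUSG00000029377, 91222481 to 91241505), Areg (ENSMUSG00000029378, 91287458 to 91296291) and Btc (ENSMUSG00000082361, 91505120 to 91550853, on the minus strand). Egf (ENSMUSG00000028017) lies on chromosome 3 at 129471214 to 129548965 and Tgfa (ENSMUSG00000029999) on chromosome 6 at 86172205 to 86252701. Egfr (ENSMUSG00000020122, 16702203 to 16868158) and Erbb2 (ENSMUSG00000062312, 98303296 to 98328542) are on chromosome 11, and Erbb3 (ENSMUSG00000018166, 128403392 to 128425521) is on chromosome 10. All 10 members are protein-coding genes.

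Promoters of 4 members are shown: Areg, Btc and Egfr, which were higher by a wide margin in inflamed tumours, and Tgfa, the ligand that was lower. Ereg is named only, since no window was matched for it. Each runs 5′ to 3′ on the gene's strand from 250 bases before to 50 bases after the RefSeq start (GRCm38.p6), and capitals mark matches to the motifs searched. They are chr5:91139349-91139648 on the plus strand for Areg, chr5:91402945-91403244 on the minus strand for Btc, chr11:16751953-16752252 on the plus strand for Egfr and chr6:86194972-86195271 on the plus strand for Tgfa.
Areg: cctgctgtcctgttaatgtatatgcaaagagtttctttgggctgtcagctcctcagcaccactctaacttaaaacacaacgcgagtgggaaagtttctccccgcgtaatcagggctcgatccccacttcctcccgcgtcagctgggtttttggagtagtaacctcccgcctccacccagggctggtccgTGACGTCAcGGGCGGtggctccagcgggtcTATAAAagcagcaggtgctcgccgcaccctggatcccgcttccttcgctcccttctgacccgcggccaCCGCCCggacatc
Btc: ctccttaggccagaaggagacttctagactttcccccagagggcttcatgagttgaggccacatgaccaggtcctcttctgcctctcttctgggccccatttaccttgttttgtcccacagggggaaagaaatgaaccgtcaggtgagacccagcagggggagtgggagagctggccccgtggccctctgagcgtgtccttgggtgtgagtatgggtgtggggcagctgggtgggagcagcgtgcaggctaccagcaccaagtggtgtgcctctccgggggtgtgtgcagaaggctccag
Egfr: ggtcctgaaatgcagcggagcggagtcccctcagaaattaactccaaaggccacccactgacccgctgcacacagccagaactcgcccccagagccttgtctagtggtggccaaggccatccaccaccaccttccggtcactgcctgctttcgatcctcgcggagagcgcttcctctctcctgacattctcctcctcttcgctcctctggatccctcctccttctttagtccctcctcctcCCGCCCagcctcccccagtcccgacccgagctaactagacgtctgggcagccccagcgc
Tgfa: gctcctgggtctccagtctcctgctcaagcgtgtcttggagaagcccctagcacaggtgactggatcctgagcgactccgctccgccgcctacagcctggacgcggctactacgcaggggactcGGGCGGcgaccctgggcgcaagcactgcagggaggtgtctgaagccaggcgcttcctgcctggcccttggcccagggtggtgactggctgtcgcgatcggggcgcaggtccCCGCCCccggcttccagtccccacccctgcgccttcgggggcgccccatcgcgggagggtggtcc

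Both strands were searched for the cAMP response element TGACGTCA, the AP-1 site TGANTCA, the TCF core CTTTGA, the GC box GGGCGG and the TATA box TATAAA, which do not overlap in these windows. The Areg window held the cAMP response element with its first base 61 bases before the start, the TATA box at 31 bases before it, and GC boxes at 52 bases before and at base 38 after it. Among 32851 RefSeq promoter windows of this length, 1.79% held the first of these, 13.6% the TATA box, 35.7% the GC box, 7.81% the AP-1 site and 16.0% the TCF core. The Egfr window held a GC box at 9 bases before the start, and the Tgfa window held GC boxes at 126 and 15 bases before it. The Btc window held none of the 5 motifs. RefSeq windows were matched for 7 of the 10 members.

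The comparison of inflamed with desert tumours asked how the supply of ligands and receptors differed between the types. Areg, Ereg, Btc and Hbegf were higher in inflamed tumours and Tgfa was lower. Among the receptors Egfr and Erbb2 were higher, and Erbb3 did not pass the test. Areg led the ligands of inflamed tumours and Tgfa those of desert tumours. Each gene was tested on log2(FPKM + 1), which shrinks fold changes of weakly expressed genes, with limma over 16750 genes whose mean FPKM over the 10 libraries was at least 0.5, at a Benjamini-Hochberg adjusted p under 0.05. Of the 10 members 8 passed that filter, Ereg, Btc and Egfr through the inflamed tumours alone. Of these 8, 6 were higher and 1 lower, beside a background of 62.2% called among all tested genes, 31.0% higher and 31.2% lower. Groups that did not overlap, as for 7 of the 8, occurred in 48.9% of all tested genes, 24.4% with inflamed tumours above and 24.4% with them below. Since so large a share of all genes differed, the counts are a description and the sizes carry the account.

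**Figure D1:**
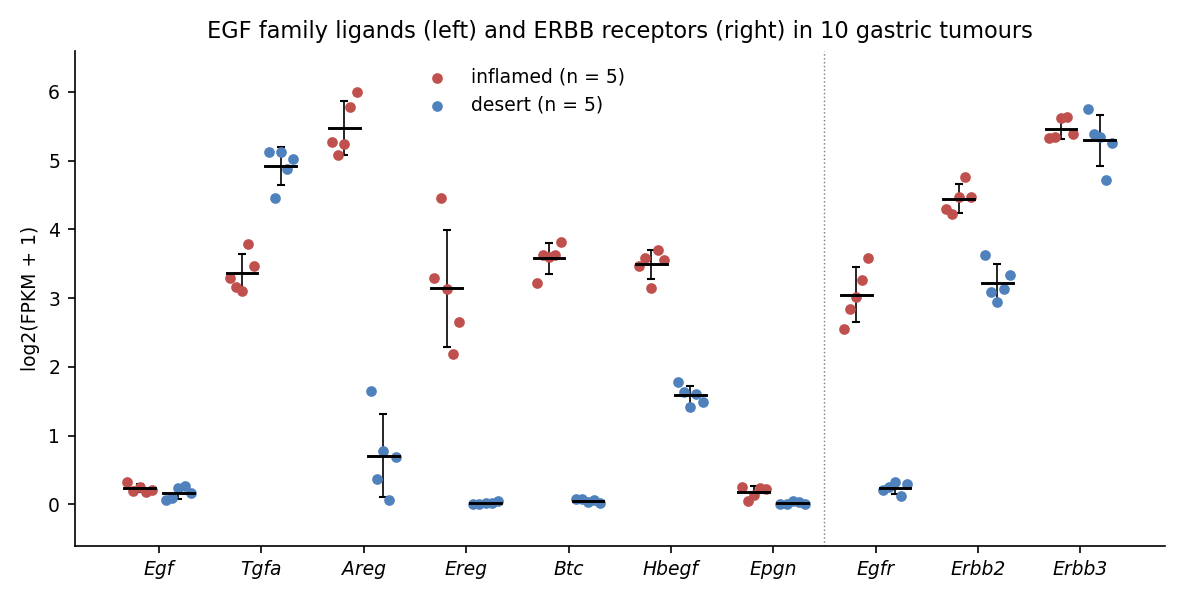
Level of each ligand and receptor gene as log2(FPKM + 1) on the vertical axis, by gene, with 1 point per tumour (red inflamed, blue desert, n = 5 each), a black line at the mean and a bar of 1 SD. Inflamed points lie above desert points for Areg, Ereg, Btc, Hbegf, Egfr and Erbb2 and below them for Tgfa, and they overlap for Erbb3, Egf and Epgn.

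Areg encodes amphiregulin, a ligand of Egfr. Inflamed tumours 1 to 5 held 37.8, 32.9, 36.8, 54.2 and 62.8 FPKM of its transcript, and desert tumours 1 to 5 held 2.15, 0.291, 0.716, 0.0433 and 0.607 FPKM. The groups did not overlap, and the desert tumours spread widely, from 1 read in tumour 4 to 40 reads in tumour 1. The ratio of the group means was 59.1, and 108 without desert tumour 1. The test gave a log2 difference of 4.77 (SE 0.28, limma adjusted p = 1.78e-07).

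Ereg encodes epiregulin, which binds Egfr and Erbb4. It measured 8.83, 21.0, 7.80, 3.57 and 5.27 FPKM in inflamed tumours 1 to 5, while desert tumours 1 to 5 held 0, 0, 0.0150, 0.0127 and 0.0383 FPKM. It was the most uneven of the called ligands among inflamed tumours, with a coefficient of variation of 73.7% and tumour 2 at 5.88 times the level of tumour 4. The desert values rest on 5 reads in all, against 3243 in inflamed tumours. The ratio of reads per library total was 671, with an exact interval of 287 to 2068 at 95% that covers counting error only. It was 1309 without desert tumour 5, which held 3 of the 5 reads. The test gave a log2 difference of 3.13 (SE 0.34, limma adjusted p = 1.51e-05). The non-coding gene Gm19610 overlaps the start of Ereg on the other strand and averaged 1.16 ± 0.455 FPKM (SD, n = 5) in inflamed tumours, with 0 in all desert tumours. No source used here says whether the counting used strand, and without it reads of overlapping genes cannot be told apart.

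Btc encodes betacellulin, also a ligand of Egfr and Erbb4. Inflamed tumours 1 to 5 held 8.29, 11.4, 11.1, 11.4 and 13.1 FPKM, the steadiest of the 3 large rises with a coefficient of variation of 15.8%. In desert tumours 1 to 5 it was at 0.0577, 0.0521, 0.0275, 0.0465 and 0.0117 FPKM, which is 1 to 4 reads per library. The ratio of reads per library total was 287 (exact interval 174 to 513, counting error only). The test gave a log2 difference of 3.53 (SE 0.11, limma adjusted p = 2.04e-09).

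Hbegf (ENSMUSG00000024486, chromosome 18, 36637980 to 36648858 in the table) encodes a heparin-binding ligand of the same 2 receptors and showed a smaller difference. Inflamed tumours 1 to 5 held 10.1, 11.0, 7.83, 12.0 and 10.8 FPKM of its transcript, and desert tumours 1 to 5 held 2.45, 2.11, 1.68, 2.03 and 1.82 FPKM. The groups did not overlap, and desert tumours kept a clear level of 131 to 187 reads each. The ratio of the means was 5.12 and the log2 difference 1.90 (SE 0.12, limma adjusted p = 1.94e-07).

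Tgfa encodes transforming growth factor alpha, a ligand of Egfr, and was the member with the opposite direction. It measured 8.77, 8.0, 7.60, 12.8 and 10.1 FPKM in inflamed tumours 1 to 5, while desert tumours 1 to 5 held 33.8, 20.9, 34.1, 28.3 and 31.7 FPKM. The lowest desert tumour, tumour 2, was above the highest inflamed tumour, tumour 4. Desert tumours held 3.15 times the inflamed mean, and inflamed tumours stood at a log2 difference of -1.56 (SE 0.16, limma adjusted p = 1.07e-05). The unconfirmed transcript Gm43917 overlaps Tgfa on the other strand and averaged 0.102 ± 0.0328 FPKM in inflamed against 0.412 ± 0.148 FPKM in desert tumours (SD, n = 5 each).

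Egf and Epgn, the latter encoding epithelial mitogen, lay below the filter. Egf ranged from 0.134 to 0.252 FPKM in inflamed and from 0.0462 to 0.200 FPKM in desert tumours, so that the groups overlapped. Tested without the filter, Egf differed by 0.07 on the log2 scale (SE 0.06, limma adjusted p = 0.429). Epgn ranged from 0.0328 to 0.189 FPKM in inflamed tumours and reached 0.0344 FPKM at most in desert tumours, from 20 and 2 reads in all. The ratio of its reads per library total was 10.3, with an exact interval of 2.51 to 91.3 for counting error. It was 16.8 without desert tumour 3 and 16.1 without desert tumour 4. Without the filter Epgn differed by 0.16 on the log2 scale (SE 0.04, limma adjusted p = 0.0139), a size that 1 to 6 reads per inflamed library cannot fix closely.

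The ligands therefore stood in a different order in the 2 groups. In inflamed tumours Areg (44.9 ± 12.9 FPKM) was above every other ligand in all 5 tumours without overlap. Btc (11.1 ± 1.75), Hbegf (10.3 ± 1.55), Tgfa (9.45 ± 2.10) and Ereg (9.28 ± 6.85 FPKM) followed at levels whose ranges overlapped. Egf (0.177 ± 0.0473) and Epgn (0.133 ± 0.0675 FPKM, SD, n = 5 each) came last and overlapped as well. In desert tumours Tgfa (29.8 ± 5.45 FPKM) was above every other ligand in all 5 tumours without overlap. Hbegf (2.02 ± 0.295) came next and was above Areg (0.761 ± 0.818) in every tumour, although their ranges overlapped. Egf (0.125 ± 0.0678), Btc (0.0391 ± 0.0191), Ereg (0.0132 ± 0.0157) and Epgn (0.0127 ± 0.0175 FPKM, SD, n = 5 each) followed, each overlapping the next. Summed over the 7 ligands, the level was 71.4 to 102 FPKM in inflamed and 23.5 to 38.5 FPKM in desert tumours. Areg made up 39.0% to 61.3% of that sum in inflamed and 0.141% to 5.57% in desert tumours, and Tgfa 9.47% to 13.6% and 87.8% to 92.8%.

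**Figure D2:**
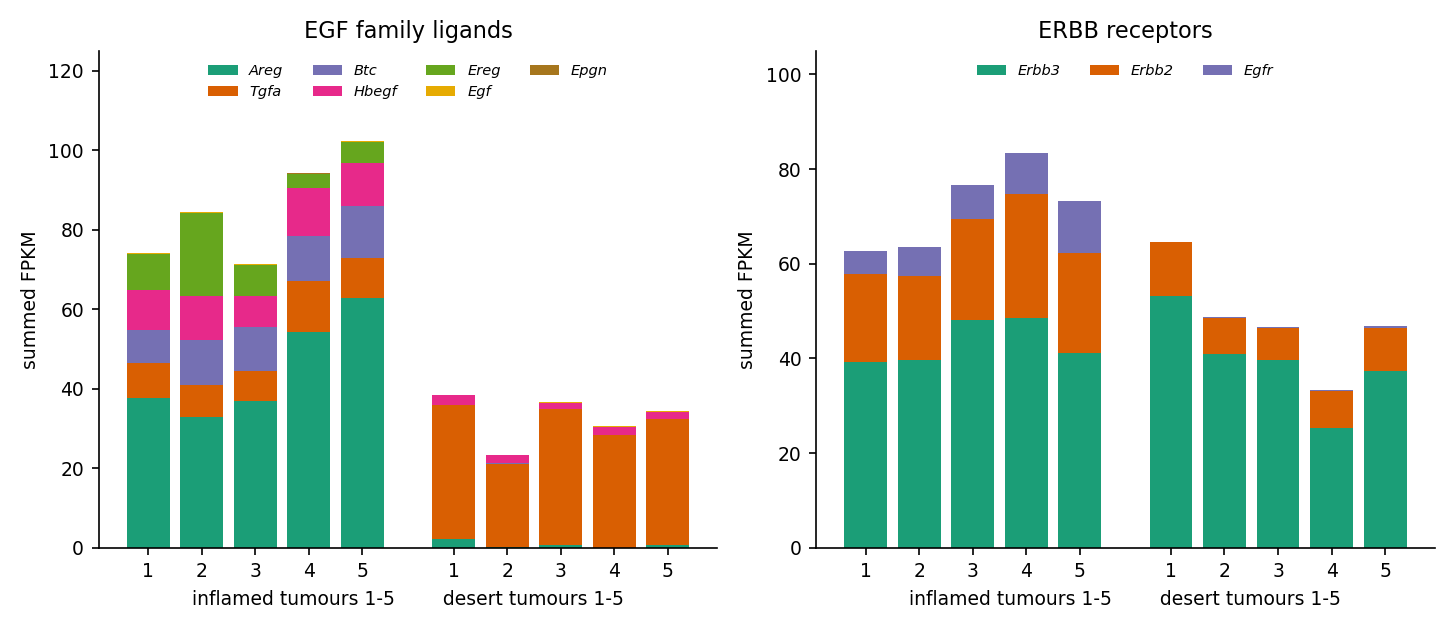
Stacked bars of FPKM per tumour (inflamed 1 to 5, then desert 1 to 5), with the 7 ligands on the left and the 3 receptors on the right. Areg and 4 other ligands fill the inflamed bars of 71.4 to 102 FPKM, Tgfa fills most of the desert bars of 23.5 to 38.5 FPKM, and Egfr is visible in the inflamed receptor bars but hardly in the desert ones.

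Egfr is the receptor of all 7 ligands. Inflamed tumours 1 to 5 held 4.84, 6.18, 7.08, 8.60 and 11.0 FPKM, and desert tumours 1 to 5 held 0.155, 0.187, 0.252, 0.0835 and 0.228 FPKM, from 18 to 49 reads each. The lowest inflamed tumour was thus far above the highest desert tumour. The ratio of the means was 41.6, with a log2 difference of 2.81 (SE 0.17, limma adjusted p = 2.16e-07). The antisense transcript Egfros overlaps it and ranged from 0.0970 to 0.210 FPKM in inflamed tumours and reached 0.0130 FPKM at most in desert tumours.

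Erbb2, the receptor without a known ligand, measured 18.7, 17.7, 21.3, 26.2 and 21.1 FPKM in inflamed tumours 1 to 5, while desert tumours 1 to 5 held 11.4, 7.48, 6.71, 7.79 and 9.13 FPKM. The groups did not overlap, with a ratio of means of 2.47 and a log2 difference of 1.22 (SE 0.14, limma adjusted p = 2.39e-05). The neighbouring gene Mien1 overlaps Erbb2 on the other strand and averaged 18.0 ± 4.15 FPKM in inflamed against 20.8 ± 6.05 FPKM in desert tumours (SD, n = 5 each).

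Erbb3 was the most abundant receptor in every tumour. Inflamed tumours 1 to 5 held 39.2, 39.7, 48.2, 48.5 and 41.1 FPKM of its transcript, and desert tumours 1 to 5 held 53.1, 41.0, 39.7, 25.4 and 37.4 FPKM. Desert tumours held both its highest value, in tumour 1, and its lowest, in tumour 4, so that the groups overlapped. The difference was 0.17 on the log2 scale (SE 0.17, 95% interval -0.20 to 0.53, limma adjusted p = 0.396), and it was slightly below 0 after rescaling to TPM, again without a call.

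Ratios of 2 receptors within a library do not depend on how libraries are scaled, and 3 pairs were compared. Erbb3 stood at 1.85 to 2.27 times Erbb2 in inflamed and at 3.26 to 5.92 times in desert tumours. Erbb3 stood at 3.75 to 8.09 times Egfr in inflamed and at 157 to 342 times in desert tumours. Erbb2 stood at 1.92 to 3.86 times Egfr in inflamed and at 26.6 to 93.2 times in desert tumours. None of the 3 ratios overlapped between the groups. The log2 differences, inflamed minus desert, were -1.14, -5.25 and -4.10 in that order, each with p = 0.00794 (exact two-sided permutation test, also 0.00794 after Benjamini-Hochberg adjustment over the 3 pairs), the smallest p that 5 against 5 can give. The pairs are not independent, as any 2 ratios fix the third. With Egfr at 4.84 to 11.0 against 0.0835 to 0.252 FPKM, both ratios to Egfr had to separate fully. The pairs were chosen with earlier results known, so these p-values only describe the separation. The order Erbb3, Erbb2, Egfr held in all 10 tumours without overlap within a group.

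**Figure D3:**
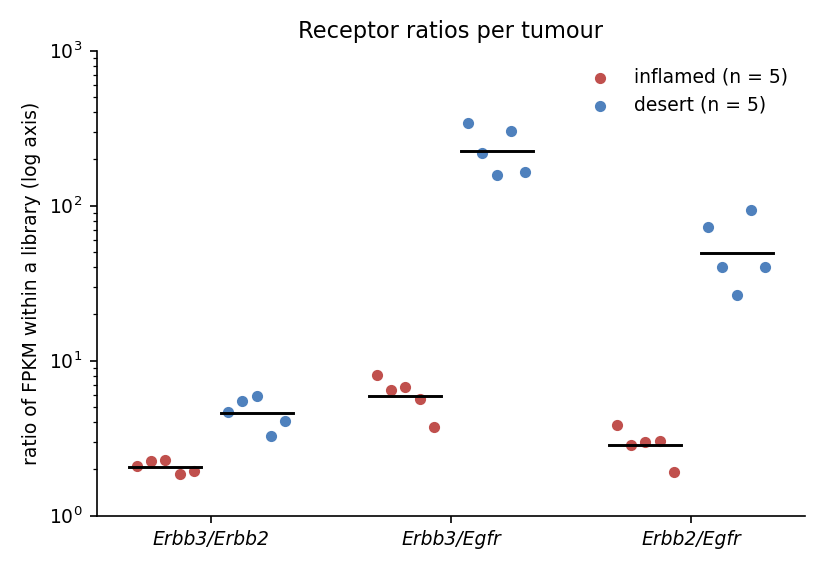
Ratio of the FPKM of 2 receptors within each library on a log axis, for the 3 pairs, with 1 point per tumour (red inflamed, blue desert, n = 5 each) and a line at the geometric mean. All desert ratios lie above all inflamed ratios, by the widest margin for Erbb3 over Egfr (157 to 342 against 3.75 to 8.09).

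Tumours of 1 group did not keep 1 order over the members. Inflamed tumour 5 was the highest for Areg, Btc and Egfr, tumour 4 for Tgfa, Hbegf, Erbb2 and Erbb3, and tumour 2 for Ereg. Among desert tumours, tumour 1 was the highest for Areg, Btc, Hbegf, Erbb2 and Erbb3, tumour 3 for Tgfa and Egfr, and tumour 5 for Ereg. The desert orders of Btc and Ereg rest on 0 to 4 reads per library, and desert tumours 1, 2 and 4 each held 4 reads of Btc. With 5 tumours a group, no correlation between members was computed.

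The 4 ligand genes of chromosome 5 occupy 376 kb from the start of Epgn to the end of Btc, with gaps of 39.4 kb between Epgn and Ereg, 46.0 kb between Ereg and Areg and 209 kb between Areg and Btc. The 3 with a clear level were called higher in inflamed tumours, but at levels apart from each other, with Areg at 44.9 and Epgn at 0.133 FPKM in inflamed tumours. Of the genes starting within 300 kb of Areg, the chemokine genes Cxcl1 and Cxcl2 were higher as well. Cxcl1 was at 8.53 ± 4.83 against 0.156 ± 0.170 FPKM (log2 difference 2.90, limma adjusted p = 1.55e-05), and Cxcl2 at 6.78 ± 4.69 against 0.0615 ± 0.0448 FPKM (2.64, adjusted p = 1.21e-04). Both chemokine genes passed the filter through the inflamed tumours alone. Mthfd2l, a mitochondrial folate enzyme gene between the chemokine genes and Epgn, was at 2.29 ± 0.411 against 1.14 ± 0.201 FPKM (SD, n = 5 each, log2 difference 0.61, adjusted p = 9.19e-04). The non-coding gene Gm19619 between Areg and Btc was at no more than 0.0295 FPKM in any tumour.

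**Figure D4:**
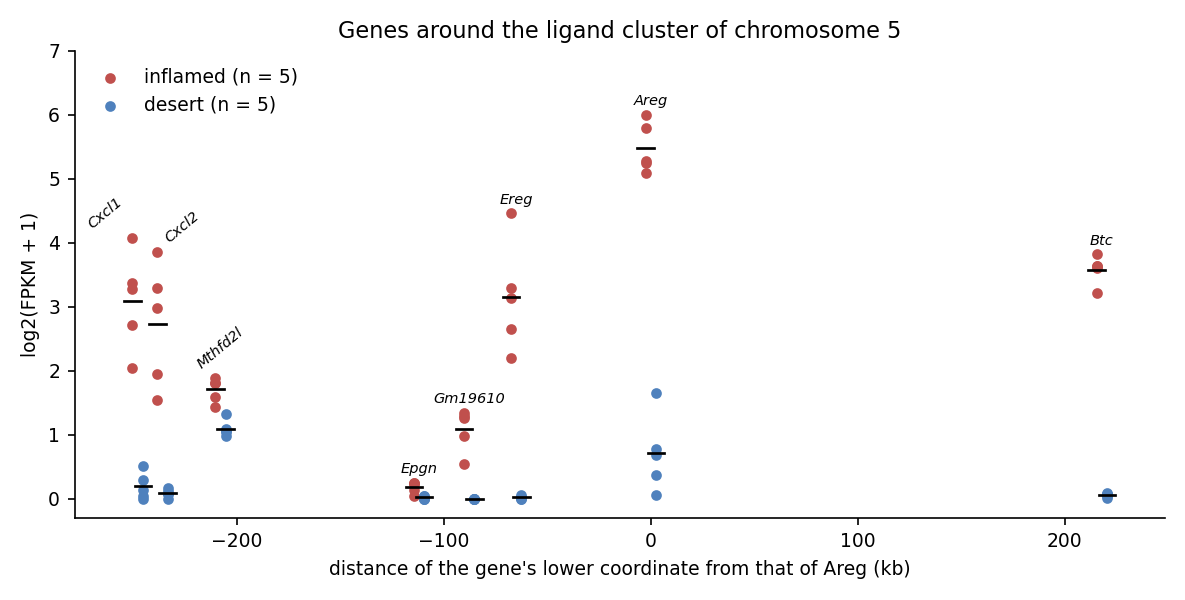
Level as log2(FPKM + 1) of the protein-coding genes and Gm19610 within 300 kb of Areg, against the distance of each gene's lower coordinate from that of Areg in kb, with 1 point per tumour (red inflamed, blue desert, n = 5 each) and a line at the mean. Inflamed points stand well above desert points for Cxcl1, Cxcl2, Ereg, Areg and Btc, by less for Mthfd2l, and Epgn is near 0 in both groups.

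Genes with the profile nearest to a member over the 10 libraries were found by the root mean square difference of log2(FPKM + 1) values in SD units. For Areg they were Shisa5 (0.0632), Itprid2 (0.0918) and Coro1c (0.0920). For Btc they were Tmc5 (0.0421), the mucous neck cell peptide gene Tff2 (0.0481) and the membrane mucin gene Muc4 (0.0564). Ereg was nearest to the immunoglobulin segment genes Igkv6-15 (0.105) and Ighv2-6 (0.113) and to Cxcl1 (0.112), and Egfr to the bile acid transporter gene Slc10a2 (0.0739), Lcorl (0.0795) and the endotoxin receptor gene Tlr4 (0.0819). For Tgfa the nearest were Nlk (0.137), Abhd2 (0.149) and Steap3 (0.149). Hbegf was nearest to Glrx (0.0747), the gastric transcription factor gene Nkx6-3 (0.0869) and Slfn4 (0.0898), and Erbb2 to Znhit1 (0.118), Smurf1 (0.135) and Akr1e1 (0.152). Erbb3 had no neighbour as close, with Slc27a4 at 0.242, Galnt6 at 0.289 and Deptor at 0.334. Profiles over these libraries are set largely by the difference between the groups, and how the counting treated immunoglobulin segments, which have near-identical copies, was not given.

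The rest of the pathway was described with 5 lists of 57 genes, of which 54 passed the filter, 17 were higher, 20 lower and 17 not called in inflamed tumours. Their median log2 difference was -0.08, beside -0.00716 over all tested genes, of which 31.0% were called higher and 31.2% lower. Rescaling to TPM shifted the median of all genes to -0.282 and the share of calls that were higher from 49.9% to 35.0%, so small differences in these lists are read against that shift. Neuregulins, which bind Erbb4 and of which some also bind Erbb3, were low throughout. Nrg1 was higher in inflamed tumours 1 to 5, with 2.21, 3.39, 1.62, 1.06 and 1.73 FPKM, whereas desert tumours 1 to 5 held 0.0211, 0.397, 0.0161, 0.0136 and 0.0171 FPKM (log2 difference 1.42, SE 0.19, limma adjusted p = 7.77e-05). Nrg1 passed the filter through the inflamed tumours alone, and a further row with its symbol was at 0 in all libraries. Nrg4 was at 0.704 ± 0.201 against 0.428 ± 0.0504 FPKM and was not called (adjusted p = 0.0700), though plain moderation (adjusted p = 0.0392), array weights (adjusted p = 0.0303) and the omission of inflamed tumour 5 (adjusted p = 0.0416) each gave a call. Nrg2 and Nrg3 were at 0 in all desert tumours, Nrg3 also in all inflamed tumours, and Erbb4 was at no more than 0.162 FPKM in any tumour.

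Of 8 genes of ligand shedding and maturation, 3 were higher, 1 lower and 4 not called, with a median log2 difference of 0.10. The shares among all tested genes were 31.0% higher and 31.2% lower. Adam10, the sheddase of Egf and Btc, was at 87.3 ± 11.1 against 84.7 ± 11.6 FPKM (limma adjusted p = 0.775). After rescaling to TPM it was called lower, with a log2 difference of -0.26 (adjusted p = 0.0498) that did not exceed the shift of all genes. Adam9 was at 56.7 ± 0.973 against 26.6 ± 4.13 FPKM (log2 difference 1.08, limma adjusted p = 6.88e-06). Rhbdl2, a rhomboid protease, was at 6.80 ± 1.83 against 1.41 ± 0.475 FPKM (1.69, adjusted p = 1.01e-05). Adam12, a metalloprotease that can release Hbegf, went the other way at 0.590 ± 0.291 against 9.64 ± 2.93 FPKM (-2.71, adjusted p = 1.23e-06). Adam17, the main sheddase of Areg and Tgfa, was at 11.4 ± 1.31 against 12.8 ± 1.38 FPKM (SD, n = 5 each) and was not called (log2 difference -0.16, limma adjusted p = 0.177). After rescaling to TPM it was called lower (-0.46, adjusted p = 0.00919), but the median of all genes also moved, from -0.00716 to -0.282. The list then held 2 higher and 3 lower, beside 3769 and 6989 of 16750 tested genes. Rhbdf2, a partner of Adam17, was no longer called.

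Of 15 adaptor and RAS-ERK relay genes, 3 were higher, 3 lower and 9 not called, with a median of -0.04. Among all tested genes 31.0% were higher and 31.2% lower. After rescaling to TPM, 1 of the 15 was higher and 7 were lower, beside 3769 and 6989 of 16750 tested genes. Without desert tumour 1, 4 were higher and 5 lower, beside 5225 and 5134 of 16837 tested genes. Mapk3, which encodes ERK1, measured 133, 138, 121, 169 and 139.5 FPKM in inflamed tumours 1 to 5, while desert tumours 1 to 5 held 56.8, 35.8, 36.9, 28.3 and 45.1 FPKM (log2 difference 1.79, SE 0.17, limma adjusted p = 5.52e-06). Gab1, a docking protein of ERBB receptors, was at 6.59 ± 1.24 against 17.3 ± 3.30 FPKM (-1.26, adjusted p = 2.02e-05). The ERK kinase gene Map2k1 was at 35.6 ± 6.11 against 36.4 ± 4.11 FPKM (SD, n = 5 each) and was not called (adjusted p = 0.793), except after rescaling to TPM (-0.34, adjusted p = 0.00529).

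**Figure D5:**
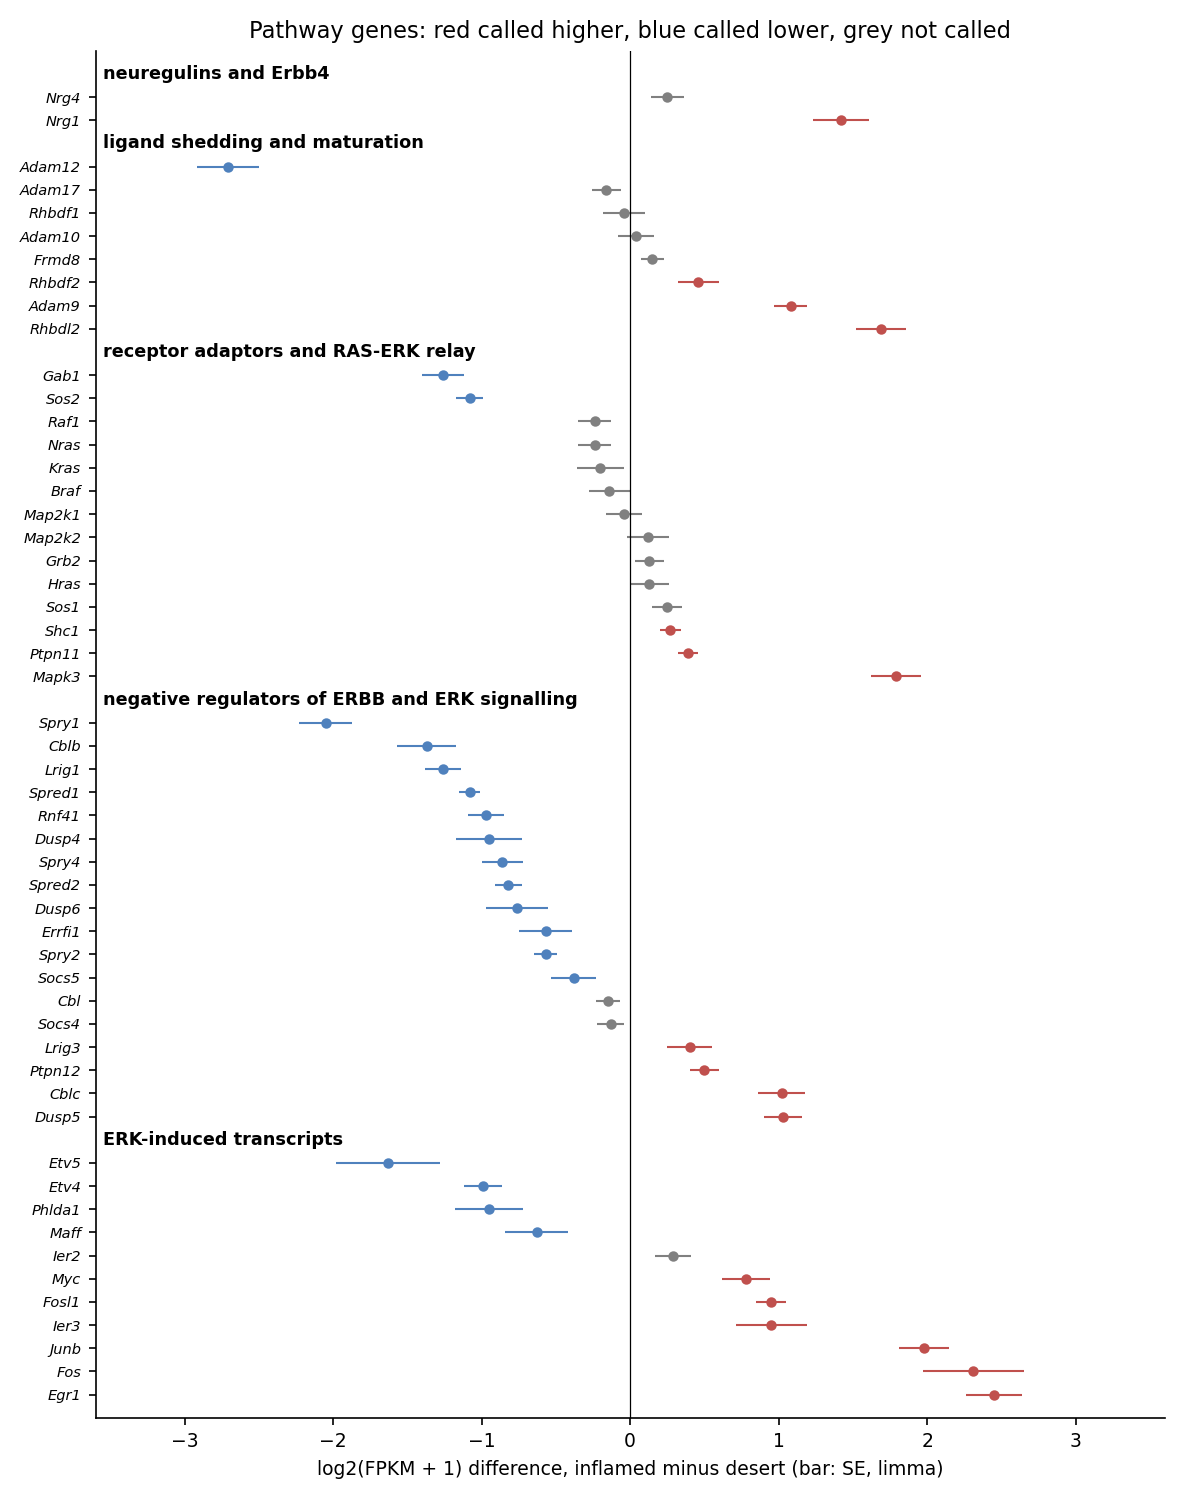
Log2(FPKM + 1) difference, inflamed minus desert, on the horizontal axis with its SE from limma, for tested genes of the 5 pathway lists (red called higher, blue called lower, grey not called). Most negative regulators lie to the left of 0 (12 of 18 called lower), while the ERK-induced transcripts split into 6 called higher and 4 called lower.

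Negative regulators of ERBB and ERK signalling were mostly higher in desert tumours. Of 18 genes 12 were lower in inflamed tumours, 4 higher and 2 not called, with a median log2 difference of -0.66, beside 31.2% lower and 31.0% higher among all tested genes. After rescaling to TPM, 14 were lower and 2 higher, beside 6989 and 3769 of 16750 tested genes. Spry1, a Sprouty inhibitor of RAS-ERK signalling, measured 7.48, 5.57, 5.20, 3.91 and 3.59 FPKM in inflamed tumours 1 to 5, while desert tumours 1 to 5 held 17.3, 21.3, 26.9, 28.9 and 26.5 FPKM (log2 difference -2.05, SE 0.18, limma adjusted p = 4.14e-06). Lrig1, a membrane protein that promotes loss of ERBB receptors, was at 35.5 ± 5.40 against 86.2 ± 9.20 FPKM (-1.26, adjusted p = 5.04e-06). The ubiquitin ligase gene Cblb was at 6.62 ± 1.19 against 19.3 ± 6.65 FPKM (-1.37, adjusted p = 1.43e-04), and its epithelial relative Cblc went the other way at 33.5 ± 2.79 against 16.4 ± 4.27 FPKM (1.02, adjusted p = 1.99e-04). The ERK phosphatase gene Dusp6 was at 31.4 ± 7.35 against 54.5 ± 15.6 FPKM with overlapping groups (-0.76, adjusted p = 0.00937), whereas Dusp5 was at 5.60 ± 0.522 against 2.26 ± 0.562 FPKM (SD, n = 5 each, 1.03, adjusted p = 3.62e-05). The call of Lrig3 (higher, limma adjusted p = 0.0425) was lost when any of inflamed tumours 1, 2 and 3 and desert tumours 2, 3, 4 and 5 was left out, at adjusted p from 0.0608 to 0.103. That of Socs5 (lower, adjusted p = 0.0419) was lost when any of inflamed tumours 1, 2, 4 and 5 and desert tumours 1, 2 and 4 was left out, at adjusted p from 0.0516 to 0.0919.

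Transcripts that ERK activity can induce split into 6 higher and 4 lower of 11 genes, with a median of 0.78, beside 31.0% higher and 31.2% lower among all tested genes. Among the 6, Fosl1 (mean 1.10 against 0.0885 FPKM) passed the filter through the inflamed tumours alone. Egr1, Fos and Junb, immediate-early transcription factor genes, were among those called higher. Ier2 was not called (log2 difference 0.29, limma adjusted p = 0.0612), and Maff was called lower (-0.63, adjusted p = 0.0199). Egr1 measured 9.75, 9.59, 11.7, 19.3 and 10.7 FPKM in inflamed tumours 1 to 5, while desert tumours 1 to 5 held 1.42, 1.59, 1.58, 1.59 and 0.670 FPKM (log2 difference 2.45, SE 0.19, limma adjusted p = 1.43e-06). Fos was at 46.3 ± 24.2 against 8.51 ± 4.35 FPKM (2.31, adjusted p = 1.57e-04) and Junb at 63.1 ± 15.1 against 15.2 ± 3.49 FPKM (1.98, adjusted p = 3.39e-06). The ETS factor gene Etv5 was on the lower side at 56.6 ± 21.0 against 177 ± 69.7 FPKM (-1.63, adjusted p = 0.00188), as were Etv4 at 12.7 ± 1.76 against 26.2 ± 4.69 FPKM (-0.99, adjusted p = 8.01e-05) and Phlda1 at 54.1 ± 14.7 against 106 ± 32.8 FPKM (SD, n = 5 each, -0.95, adjusted p = 0.00399). These lists measure transcripts, and receptor or ERK activity was not measured.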

How the data were processed

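Total RNA of 10 mouse gastric tumours, 5 inflamed and 5 desert, was extracted with TRIzol and sequenced, per the labels' protocols, whose text counts 6 tumours, and all 10 were used. The authors deposited FPKM values in a single table. The genome build mm10 comes from the submitters' processing notes; no source used here gives the aligner, counter, annotation or strand. FPKM times gene length gave whole multiples of 1 step per library (100.0% of non-zero values, tolerance 0.01), which gave the reads back. The library total behind that step was 0.980 (inflamed tumour 4) to 1.15 (desert tumour 2) times the reads in genes, so it was not a plain read count. Ratios of reads per library total used these totals. Samples of a group differed by 19.5 to 138 times sampling noise (chi-square per degree of freedom), so none was a repeated library.

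Genes averaging 0.5 FPKM or more over the 10 libraries were fitted on log2(FPKM + 1) with limma 3.58.1 in R 4.3.3, with trend and robust moderation and group as the only term, two-sided. Exact tests and intervals used scipy 1.17.1 and Python 3.11.15. The fit was also run on simulated data in which few genes differed, unlike these data, so that run cannot vouch for the calls made here. Members, lists and tests were chosen with earlier results of these data known. From each pathway list the text names the 2 called genes that differed most and the 2 with the highest average FPKM. For each tested member it names the 3 nearest profiles. Adam17, Cblc, Dusp5, Junb, Etv4, Lrig3, Socs5, Maff, Ier2, Rhbdf2 and Fosl1 were chosen after their values were seen. 1 gene of the relay list is left out of the text and the plot of pathway genes, though its list's counts include it; other list genes without values in the text are in that plot where they were tested. Alternatives were a pseudocount of 0.1, no filter, a mean FPKM of at least 5, TPM, median-of-ratios scaling, quantile normalization, plain moderation, array weights, voom on reads (mean of at least 10), a block for tumour number, and fits without each library.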

Additional observations from a re-analysis of the deposited data

Results flagged for a closer look

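Of 60 sets of 5 values examined (30 genes or ratios in each group), 5 held a tumour set apart from the others by Dixon's criterion, where chance sets apart about 1 in 20. In the desert group, tumour 2 held Nrg1 at 0.397 FPKM against 0.0136 to 0.0211 FPKM in the others, and tumour 5 held Egr1 at 0.670 FPKM against 1.42 to 1.59 FPKM. Inflamed tumour 4 held Egr1 at 19.3 FPKM against 9.59 to 11.7 FPKM, Fos at 89.0 FPKM against 31.0 to 42.0 FPKM and the protease gene Rhbdl2 at 9.97 FPKM against 5.46 to 6.73 FPKM. The same tumour held the squamous keratin gene Krt13 at 154 FPKM and the smooth muscle gene Actg2 at 234 FPKM. Ivl of the squamous list went the other way, with its lowest inflamed level there (2.26 FPKM against 3.75 to 11.0 FPKM). The part of such tissue in these values was not tested. None of the EGF ligands, ERBB receptors or receptor ratios was set apart in this way.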

How the results depend on the processing

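The 6 higher and 1 lower calls among the ligands and receptors were made in every alternative in which the gene could be tested, and the count changed only where a mean FPKM of at least 5 removed Ereg and Egfr (4 higher and 1 lower) or where no filter added Epgn (7 higher and 1 lower). Over the alternatives the log2 difference of Areg ran from 4.61 to 6.53, of Ereg from 2.80 to 8.81, of Btc from 3.46 to 7.99 and of Egfr from 2.68 to 5.34, the wide ends coming from a pseudocount of 0.1 and from voom. Hbegf ran from 1.82 to 2.30, Erbb2 from 1.0 to 1.32, Tgfa from -1.93 to -1.49 and Erbb3, never called, from -0.13 to 0.28. A mean FPKM of at least 5 tested fewer genes and gave 2784 higher and 3070 lower against 5197 and 5221; leaving out 1 library gave 4829 to 5225 higher and 4911 to 5134 lower. Higher calls among the negative regulators were 4, and 2 both with that filter and with TPM, and lower calls 11 to 12 with 1 library left out. Adam10 turned to -0.26 with TPM (limma adjusted p = 0.0498), and the cause was not tested.

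Tumour numbers did not pair the samples: the correlation of same-numbered deviations from the group means was -0.0737 to 0.0763. With the number as a block, 4958 genes were higher and 4967 lower, and 6 members were higher and 1 lower. The receptor ratios kept -1.14, -5.25 and -4.10 under this replicate block, where 5 pairs allow no exact p below 0.0625. The ligand differences in desert tumours are limited by depth: Ereg, Btc and Epgn rest on 0 to 4 reads per desert library.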
